A study of Mus musculus with 6 samples.

Results

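Border-associated macrophages are resident phagocytes that line the meninges, the spaces around blood vessels and the choroid plexus, and are distinct from the microglia inside the brain tissue. They sample fluid at these surfaces with scavenger and lectin receptors, and are told apart from microglia by transcripts such as Mrc1, Cd163, Lyve1 and Folr2. Like microglia, they carry CD11b and can therefore enter a preparation selected for it. The 9 genes described here, Mrc1, Cd163, Pf4, F13a1, Lyve1, Cbr2, Folr2, Clec10a and Ccl8, were taken by symbol from a table of 55401 gene identifiers. Each of the 9 had counts in every library and enough counts to be among the 19554 genes tested.

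The libraries were made from cells of mouse brain labelled as microglia, which the study's methods describe as purified on a Percoll gradient after enzymatic digestion and selected magnetically for CD11b. There were 3 libraries from MRL/lpr mice, a lupus model that carries the lpr mutation of Fas, and 3 from MRL/mpj mice, the same MRL background without it. All were labelled as brain, untreated and 6 weeks old. The methods describe female mice, and the labels give neither the sex nor whether each library came from separate animals, so p-values measure the spread between these libraries only.

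The 9 genes did not move as a block between the strains. Ccl8, a chemokine that attracts monocytes and lymphocytes, was upregulated in the MRL/lpr libraries, and Cbr2, a carbonyl-reducing enzyme, and Mrc1, the mannose receptor CD206, were downregulated. In depth-scaled counts (CPM, scaled by TMM), the mean of Ccl8 was 10.8-fold higher in MRL/lpr, that of Cbr2 was 3.20-fold higher in MRL/mpj, and that of Mrc1 was 1.31-fold higher in MRL/mpj. The scavenger receptor Cd163 had higher CPM in every MRL/lpr library than in any MRL/mpj library but missed the test, and the other 5 genes had overlapping libraries. In a bulk preparation, fewer border macrophages and less of a transcript in each of them cannot be told apart.

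By the quasi-likelihood test of edgeR, with p-values adjusted by the Benjamini-Hochberg method and a threshold of 0.05, 1 of the 9 genes was higher in MRL/lpr, where 11.1% of all tested genes were, and 2 were lower, where 9.06% of all tested genes were. With |log2FC| of at least 1 as well, 1 gene was higher (4.67% of all tested genes) and 1 was lower (3.66%). The libraries of the strains did not overlap in 2 genes that were higher in MRL/lpr (19.6% of all tested genes) and in 2 that were lower (19.4%). The median log2FC of the 9 genes was -0.11, beside -0.0093 for all tested genes.

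**Figure D1:**
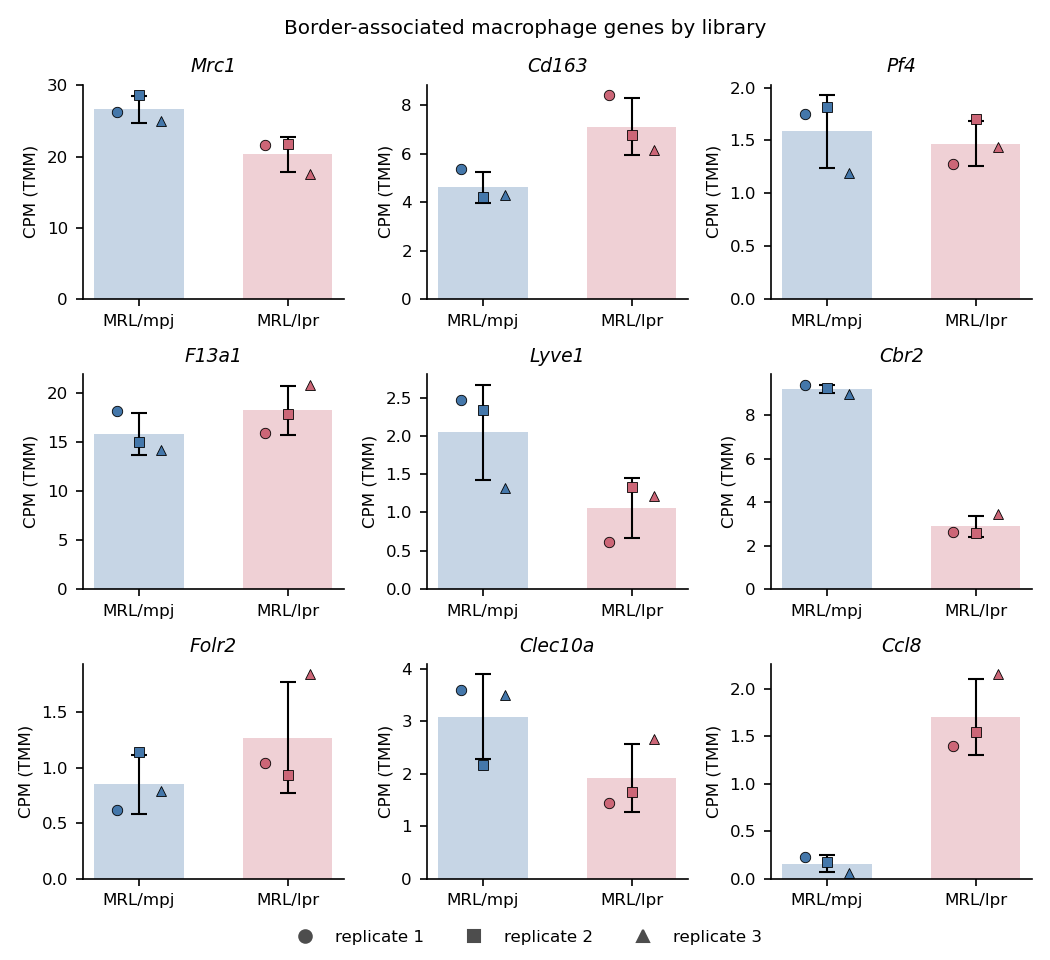
TMM-scaled CPM of each of the 9 border-associated macrophage genes in the 3 MRL/mpj and 3 MRL/lpr libraries. Bars are means, error bars are SD, and points are single libraries with the replicate number given by the symbol; Ccl8, Cbr2, Mrc1 and Cd163 show no overlap between the strains, and each panel has its own axis from 0.

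Total counts ran from 45481609 to 49846634 per library. Multiples of 4 were over-represented among low counts, so a small count may stand for fewer sequenced fragments than it states. A single gene made up 6.38% of MRL/lpr replicate 3 and no more than 0.457% of any other library. The mitochondrial share was 3.06% to 3.49% in MRL/lpr and 5.84% to 6.38% in MRL/mpj. Xist, the RNA of the inactive X chromosome, had 8886 to 11319 counts in MRL/lpr and 27 to 38 in MRL/mpj, while the Y-linked gene Ddx3y had 3690 to 7559 counts over all 6 libraries. The low Xist in MRL/mpj and the Ddx3y counts in all 6 libraries are at odds with the female mice that the methods describe. Any part that sex has in the differences between the strains cannot be told apart from that of genotype here. The microglial marker Tmem119 had a mean FPKM (fragments scaled for gene length and depth) of 885 in MRL/lpr and of 999.7 in MRL/mpj, whereas no library of any of the 9 genes reached 7 FPKM.

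Ccl8 (ENSMUSG00000009185, chr11:82115185-82116799 on the forward strand of GRCm38) encodes a CC chemokine, in the mouse a ligand of Ccr8. It had 66, 73 and 90 counts in MRL/lpr replicates 1 to 3 and 12, 9 and 3 counts in MRL/mpj replicates 1 to 3. The corresponding CPM were 1.40, 1.55 and 2.15 in MRL/lpr and 0.234, 0.180 and 0.0577 in MRL/mpj. The lowest MRL/lpr library was far above the highest MRL/mpj library. Its log2FC was 3.42 (standard error 0.56, 95% interval 2.15 to 4.69, adjusted p = 0.00231 by edgeR), with 3 of 3 MRL/lpr libraries above all MRL/mpj libraries. The size of this fold rests on few counts in MRL/mpj, and over the 14 alternative settings the log2FC lay between 3.02 and 3.82 with adjusted p between 2.8e-07 and 0.0147.

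Cbr2 (ENSMUSG00000025150, chr11:120729489-120732114, reverse strand) encodes carbonyl reductase 2, which reduces carbonyl groups with NADPH. It had 123, 122 and 144 counts in MRL/lpr replicates 1 to 3 and 483, 463 and 468 counts in MRL/mpj. The CPM were 2.62, 2.59 and 3.45 in MRL/lpr and 9.40, 9.26 and 8.995 in MRL/mpj. The MRL/mpj libraries were nearly level, with a coefficient of variation of 2.23%, and all lay far above the MRL/lpr libraries. The log2FC of Cbr2 was -1.68 (standard error 0.19, 95% interval -2.10 to -1.26, adjusted p = 0.00022), and it lay between -1.82 and -1.61 in the 14 alternative settings.

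The upstream sequences of both genes and of Mrc1 are shown because these 3 genes passed the test. They are the 250 bases before the RefSeq start site (assembly GRCm38.p6), written 5′ to 3′ on the gene's strand, and capitals mark matches on either strand to GAGGAA, the core bound by PU.1 (Spi1), a factor of all macrophages.
Ccl8, chr11:82114935-82115184, forward strand: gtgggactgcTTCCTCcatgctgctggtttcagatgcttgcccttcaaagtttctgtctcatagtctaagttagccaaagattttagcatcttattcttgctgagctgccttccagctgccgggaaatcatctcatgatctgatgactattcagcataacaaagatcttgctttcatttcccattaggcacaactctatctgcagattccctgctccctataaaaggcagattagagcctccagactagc
Cbr2, chr11:120732022-120732271, reverse strand: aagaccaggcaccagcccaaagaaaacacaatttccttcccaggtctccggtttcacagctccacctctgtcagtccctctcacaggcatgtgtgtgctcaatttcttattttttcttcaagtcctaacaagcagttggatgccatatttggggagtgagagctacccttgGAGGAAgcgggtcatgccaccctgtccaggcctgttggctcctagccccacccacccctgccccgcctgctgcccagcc
Mrc1, chr2:14229164-14229413, forward strand: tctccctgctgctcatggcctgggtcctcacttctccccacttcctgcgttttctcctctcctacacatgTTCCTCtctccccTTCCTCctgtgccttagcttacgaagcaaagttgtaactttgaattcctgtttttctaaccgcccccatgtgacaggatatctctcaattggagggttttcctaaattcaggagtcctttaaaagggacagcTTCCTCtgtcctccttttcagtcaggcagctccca

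A RefSeq window of 250 bases before to 50 bases after the start site was found for 7 of the 9 genes. GAGGAA occurred on either strand in 28.3% of all 32851 such windows. It began 240 bases before the start of Ccl8, 79 bases before that of Cbr2, and 180, 167 and 35 bases before that of Mrc1. Pf4 and F13a1 also held it, and Cd163 and Folr2 did not. The interferon-stimulated response element GAAANNGAAA, found in 3.44% of all windows, and the STAT site TTCNNNGAA, found in 8.30%, had no match in any of the 7 genes. The window of Cbr2 held the STAT6 site TTCNNNNGAA, found in 6.95% of windows. It also held TGCTGAC, only a part of the MAF recognition sequence, found in 4.67% of windows. Both lay within the 50 bases after the start of Cbr2. These matches describe letters in the windows and not binding.

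Mrc1 (ENSMUSG00000026712, chr2:14229392-14332057, forward strand) takes up glycoproteins that end in mannose, fucose or N-acetylglucosamine. It had the highest mean CPM of the 9 genes in each strain, although F13a1 exceeded it in MRL/lpr replicate 3. It had 1019, 1025 and 732 counts (21.7, 21.8 and 17.5 CPM) in MRL/lpr and 1347, 1433 and 1299 counts (26.2, 28.7 and 25.0 CPM) in MRL/mpj. The groups did not overlap, and MRL/lpr replicate 3 was the lowest library. The log2FC of Mrc1 was -0.39 (standard error 0.12, 95% interval -0.65 to -0.13, adjusted p = 0.0443). This call did not hold when any library was left out, with adjusted p between 0.0614 (MRL/lpr replicate 2 left out) and 0.159 (MRL/mpj replicate 2 left out) and log2FC from -0.44 to -0.29.

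Cd163 (ENSMUSG00000008845, chr6:124304656-124330527, forward strand) binds haptoglobin-haemoglobin complexes and delivers their haem for breakdown. It had 397, 319 and 258 counts (8.44, 6.78 and 6.17 CPM) in MRL/lpr and 276, 210 and 224 counts (5.37, 4.20 and 4.31 CPM) in MRL/mpj. Every MRL/lpr library lay above every MRL/mpj library, in the direction opposite to Mrc1. The log2FC was 0.62 (standard error 0.20, 95% interval 0.18 to 1.07), and the adjusted p was 0.054, just over the threshold. It fell under the threshold with DESeq2 (adjusted p = 0.0289), with the counts divided by 4 (0.04) and without MRL/lpr replicate 3 (0.0401), and it reached 0.183 at most in the other settings.

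The remaining receptors were scarce, with no more than 185 counts in any library. Lyve1 (ENSMUSG00000030787, chr7:110850607-110863239, reverse strand), a receptor for hyaluronan shared with lymphatic endothelium, had 29, 63 and 51 counts (0.617, 1.34 and 1.22 CPM) in MRL/lpr and 127, 117 and 69 counts (2.47, 2.34 and 1.33 CPM) in MRL/mpj. The groups met at MRL/lpr replicate 2 and MRL/mpj replicate 3, and the log2FC was -0.95 (standard error 0.41, 95% interval -1.87 to -0.03, adjusted p = 0.143). Clec10a (ENSMUSG00000000318, chr11:70156197-70170834, forward strand), a lectin for galactose and N-acetylgalactosamine, had 68, 78 and 111 counts in MRL/lpr and 185, 108 and 182 in MRL/mpj. MRL/lpr replicate 3, at 2.66 CPM, exceeded MRL/mpj replicate 2, at 2.16 CPM, and the log2FC was -0.69 (standard error 0.33, 95% interval -1.43 to 0.06, adjusted p = 0.192).

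Folr2 (ENSMUSG00000032725, chr7:101839988-101857194, reverse strand), the folate receptor beta of macrophages, had 49, 44 and 77 counts (1.04, 0.935 and 1.84 CPM) in MRL/lpr and 32, 57 and 41 counts (0.623, 1.14 and 0.788 CPM) in MRL/mpj. The groups overlapped, and the log2FC was 0.58 (standard error 0.44, 95% interval -0.41 to 1.57, adjusted p = 0.419). The antisense gene Gm10602 shares exon sequence with Folr2 on the other strand and had 28 to 48 counts per library. The kit is stranded, but the setting used in counting is not given in the sources used here, so the Folr2 values are uncertain.

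F13a1 (ENSMUSG00000039109, chr13:36867178-37050244, reverse strand), the catalytic subunit of coagulation factor XIII that cross-links fibrin, was the second most counted of the 9 genes. It had 751, 841 and 872 counts (16.0, 17.9 and 20.9 CPM) in MRL/lpr and 936, 749 and 736 counts (18.2, 14.98 and 14.2 CPM) in MRL/mpj, with overlapping groups. The log2FC was 0.21 (standard error 0.14, 95% interval -0.12 to 0.53, adjusted p = 0.373). Pf4 (ENSMUSG00000029373, chr5:90772435-90773383, forward strand), a chemokine shared with platelets, had 60, 80 and 60 counts in MRL/lpr and 90, 91 and 62 in MRL/mpj. The libraries were interleaved, and the log2FC of Pf4 was -0.11 (standard error 0.32, 95% interval -0.84 to 0.62, adjusted p = 0.863).

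Since the CPM of each gene shares a library's scaling, the members were also set against Mrc1 within the same library, where that scaling cancels. The log2 ratio to Mrc1 was higher in every MRL/lpr library than in any MRL/mpj library for Ccl8, Cd163, Folr2 and F13a1, with differences between the strain means of 4.03, 1.02, 0.955 and 0.603. For Cbr2 the ratio was lower in every MRL/lpr library, by a mean difference of -1.29. Pf4, Clec10a and Lyve1 had overlapping ratios, so of the 8 genes these 3 were not separated from Mrc1. Mrc1 itself was lower in MRL/lpr (log2FC -0.39), which raises each of these ratios in MRL/lpr. In CPM, Folr2 and F13a1 overlapped between the strains and did not pass the test. How many of all tested genes separate from Mrc1 in this way was not computed. These ratios share the Mrc1 values and are given as a description.

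**Figure D2:**
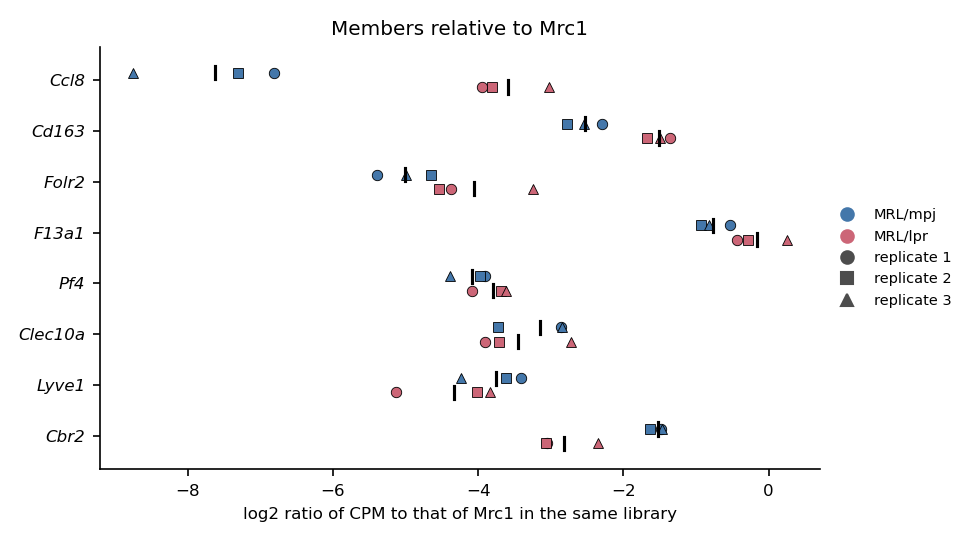
Log2 ratio of the CPM of 8 members to the CPM of Mrc1 in the same library, with points for single libraries and vertical ticks for strain means. Ccl8, Cd163, Folr2 and F13a1 lie to the right in MRL/lpr with no overlap, and Cbr2 lies to the left.

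The summed CPM of the 9 genes was 54.5, 56.2 and 57.3 in MRL/lpr and 67.9, 64.8 and 59.3 in MRL/mpj. The groups did not overlap, and the ratio of the means was 0.876. The sums overlapped without Mrc1 (32.8 to 39.8 in MRL/lpr and 34.3 to 41.7 in MRL/mpj) and also without Cbr2 (51.9 to 53.9 and 50.3 to 58.5), and stayed apart when any other member was left out.

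Levels between genes were compared in the deposited FPKM, which divide by gene length. In MRL/mpj the order of the mean FPKM was Cbr2 (6.44 ± 0.147, SD, n = 3), Mrc1 (3.88 ± 0.275), F13a1 (2.18 ± 0.295), Pf4 (2.0 ± 0.452), Clec10a (0.973 ± 0.254), Cd163 (0.783 ± 0.110), Lyve1 (0.647 ± 0.197), Folr2 (0.50 ± 0.157) and Ccl8 (0.263 ± 0.152). Neighbours in this order overlapped except for Cbr2 and Mrc1, Mrc1 and F13a1, and Pf4 and Clec10a. In MRL/lpr the order was Ccl8 (2.82 ± 0.571), Mrc1 (2.73 ± 0.401), F13a1 (2.31 ± 0.245), Cbr2 (1.83 ± 0.251), Pf4 (1.71 ± 0.278), Cd163 (1.12 ± 0.213), Folr2 (0.687 ± 0.239), Clec10a (0.547 ± 0.170) and Lyve1 (0.303 ± 0.110). There the neighbours overlapped except for Pf4 and Cd163, and Clec10a and Lyve1. Ccl8 thus stood last in MRL/mpj and first in MRL/lpr, where its libraries overlapped those of Mrc1 and F13a1.

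**Figure D3:**
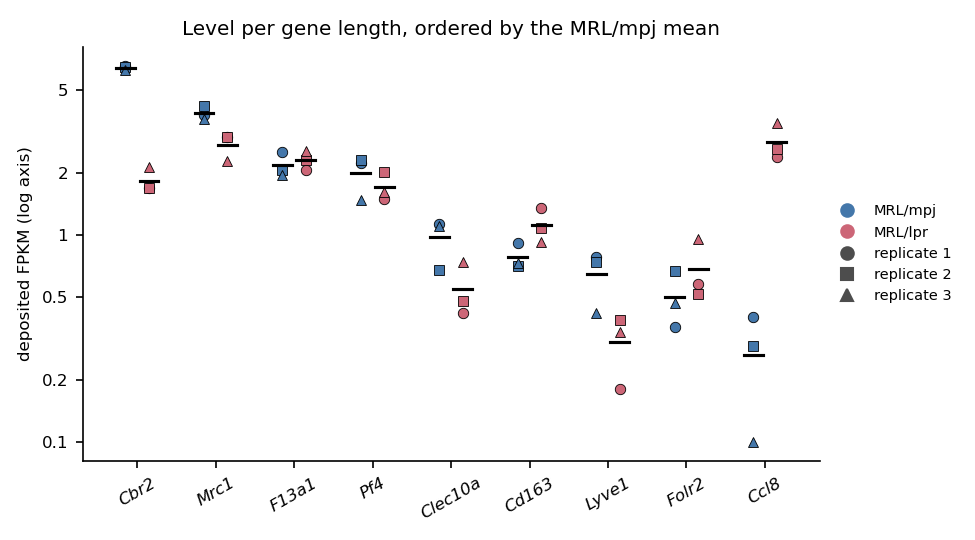
Deposited FPKM of the 9 genes on a log axis, ordered by the MRL/mpj mean, with points for single libraries and horizontal ticks for strain means. Cbr2 drops from 6.44 to 1.83 and Ccl8 climbs from 0.263 to 2.82, while the other genes stay closer to their MRL/mpj level.

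Genes with the nearest profile over the 6 libraries were found by the root mean square difference of log2 CPM centred on each gene's mean, among 13137 genes with at least 100 counts on average. Ccl8 was nearest to Ms4a4c, with a difference of 0.211 log2 units, and Ms4a4c had a log2FC of 3.05. Cbr2 was nearest to Myl9, a myosin light chain of smooth muscle, at 0.0396. Mrc1 was nearest to Cdca7 (0.0307), Cd163 to D16Ertd472e (0.0784) and Pf4 to Ggn (0.0756). Lyve1 was nearest to Fbxo44 (0.105), Folr2 to Gm2415 (0.0740) and Clec10a to Spcs2 (0.0917). The median profile of the 9 genes was nearest to Tmem150a (0.0407), Lims2 (0.0438), Tfeb (0.0453), Gm11353 (0.0454) and Rps12-ps3 (0.0471). Among the 9, Pf4 and F13a1 had the closest profiles (0.245) and Cbr2 and Ccl8 the farthest (2.28).

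A list of 28 further genes known from border-associated macrophages also held genes that moved in either direction. Of the 26 that could be tested, 8 were higher in MRL/lpr (11.1% of all tested genes), 5 were lower (9.06%) and 13 did not pass. Their median log2FC was 0.243, beside -0.0093 for all tested genes. The scavenger receptor Marco, the sialic acid receptor Siglec1 and the Clec10a paralog Mgl2 were among those higher. Siglec1 had 10.1, 10.8 and 10.1 CPM in MRL/lpr and 1.07, 0.760 and 1.67 CPM in MRL/mpj (log2FC 3.14, adjusted p = 5.86e-05), with no overlap. Marco passed with at most 4 counts in any MRL/mpj library, so the size of its fitted fold depends on the settings of the fit, and Ms4a6c (log2FC 1.71) and Ms4a6b (1.22) passed as well.

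Those lower were Nrp1 (log2FC -1.45), Colec12 (-0.89), the scavenger receptor Stab1 (-0.78), Egfl7 (-0.31) and the iron exporter Slc40a1 (-0.31). Stab1 had 413 to 453 CPM in MRL/lpr and 717 to 745 CPM in MRL/mpj, and several of these genes are also transcribed in microglia or endothelium. Which cells the transcripts of this list came from was not tested, for the higher genes as for the lower. Ms4a7 (log2FC 0.28, adjusted p = 0.75) and Cd209f (-1.40, adjusted p = 0.157) did not pass. Left out library by library, the number that was higher lay between 6 and 8, and the number that was lower between 3 and 5, with 3 when any MRL/mpj library was left out.

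Border macrophages of the dura and choroid plexus include a subset rich in MHC class II molecules, which present antigen to CD4 T cells. Of 11 genes of this subset, 6 were higher in MRL/lpr (11.1% of all tested genes), 1 was lower (9.06%) and 4 did not pass. Their median log2FC was 1.2, beside -0.0093 for all tested genes. H2-Aa had 63.8, 69.7 and 71.6 CPM in MRL/lpr and 15.7, 13.5 and 13.4 CPM in MRL/mpj. Cd74, the invariant chain, had 783 to 826 CPM in MRL/lpr and 176 to 193 CPM in MRL/mpj (log2FC 2.13, adjusted p = 1.06e-07). H2-Eb1 (log2FC 1.76), Ciita (1.61) and H2-DMa (1.28) were also higher. Axl was lower (-0.41, adjusted p = 0.0375), a call lost in 4 of the 6 leave-one-out fits. Ccr2, a chemokine receptor of this subset and of monocytes, had a log2FC of -0.26 (adjusted p = 0.349). These genes are also transcribed by B cells, dendritic cells and activated microglia.

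**Figure D4:**
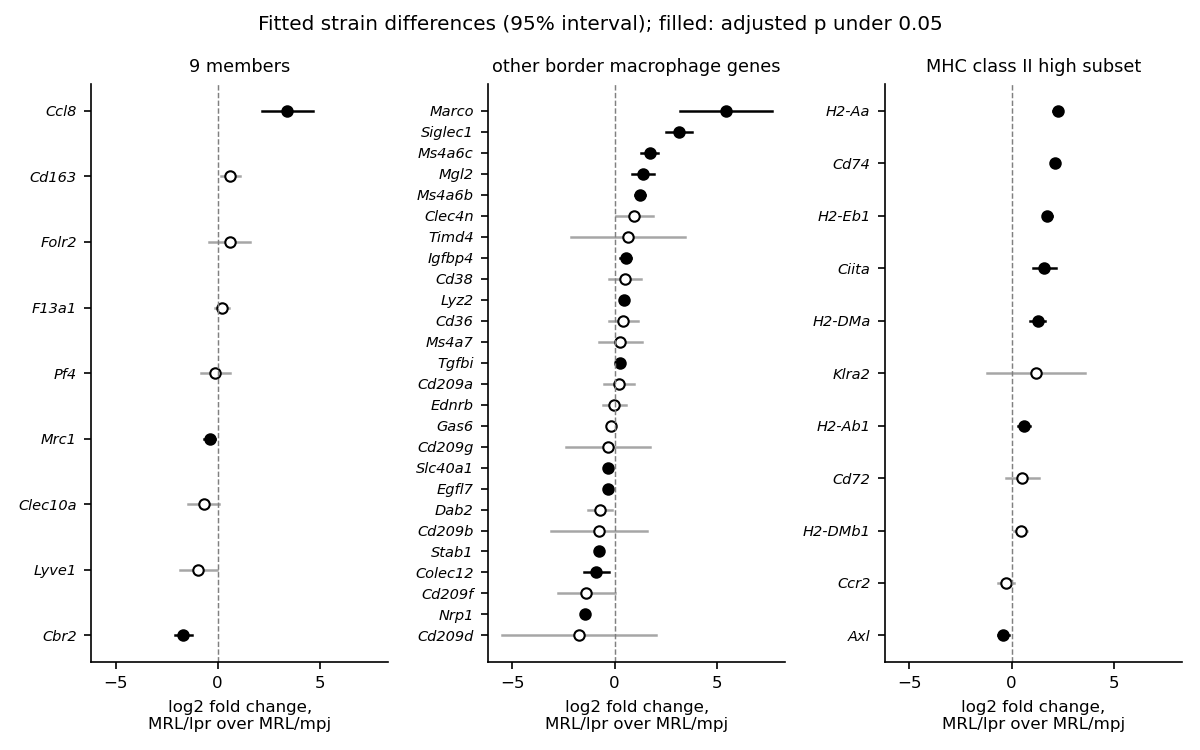
Log2 fold changes of the 9 members, of 26 other border macrophage genes and of 11 genes of the MHC class II high subset, as points with 95% intervals, filled where the adjusted p was under 0.05. Filled points lie on both sides of 0 in the left and middle panels and mostly above 0 in the right panel, where H2-Aa reaches 2.27.

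The genes that work with the 9 members, as ligands, receptors, paralogs or related enzymes, came to 80, of which 69 were tested. Of these, 24 were higher in MRL/lpr (11.1% of all tested genes), 6 were lower (9.06%) and 39 did not pass. Their median log2FC was 0.105, beside -0.0093 for all tested genes. The same shares of all tested genes stand beside the counts by role that follow. Among 12 genes of haem and iron handling listed with Cd163, 5 were higher. They were led by Hmox1 (log2FC 1.0, adjusted p = 7.65e-05), which breaks haem down, and Hp (0.83), which binds haemoglobin. Hmox1 ran from 719 to 913 CPM in MRL/lpr and from 405 to 438 CPM in MRL/mpj, and the exporter Slc40a1 was lower.

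Of 7 tested lectins related to Mrc1 and Clec10a, Mrc2 and Mgl2 were higher, and Pla2r1 and Colec12 were lower. Mrc2, the paralog that takes up collagen, had 90.9, 91.4 and 122 CPM in MRL/lpr and 13.5, 17.0 and 13.95 CPM in MRL/mpj (log2FC 2.77, adjusted p = 2.38e-06), the opposite direction to Mrc1. Mgl2 lies 18.6 kb from Clec10a and had 7.32, 6.63 and 7.35 CPM in MRL/lpr and 3.54, 2.02 and 2.61 CPM in MRL/mpj (log2FC 1.38, adjusted p = 0.00284), while Clec10a itself had a negative log2FC that did not pass. Reads could in part be shared between such paralogs, since how multiply aligned reads were counted is not given in the sources used here.

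Among 7 tested genes of hyaluronan, the ligand of Lyve1, the receptors Hmmr (log2FC 1.93) and Cd44 (0.74, adjusted p = 0.00216) were higher. Among 13 folate genes, 3 were higher, led by Tyms (1.14) and Shmt1 (0.54). Folr1, which lies 1.14 kb from Folr2 and marks choroid plexus epithelium, was lower (-1.15, adjusted p = 0.00512). Of 11 tested genes of cross-linking and fibrinolysis around F13a1, F3 (1.43), Plau (1.31), Plat (0.64) and Tgm2 (0.48, adjusted p = 0.000465) were higher. F13b, the carrier subunit made by the liver, had at most 12 counts and was not tested. Of 9 genes listed with Cbr2, most of them carbonyl reductases, 2 were higher and 7 did not pass. Those higher were Akr1b3 (0.33), an aldose reductase, and Hpgd (3.73), a dehydrogenase that oxidises prostaglandins.

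Ccl8 lies in a cluster of CC chemokine genes on chromosome 11, with Ccl12 at 11.8 kb, Ccl11 at 52.2 kb, Ccl7 at 67.7 kb and Ccl2 at 77.7 kb. Ccl7 (log2FC 0.69, adjusted p = 0.0228), Ccl12 (0.55, adjusted p = 0.0247) and Ccl2 (0.44, adjusted p = 0.0332) were higher in MRL/lpr, each in 3 of 3 libraries above all MRL/mpj libraries. Their 95% intervals lay under that of Ccl8, with an upper end of 1.08 for Ccl7 against a lower end of 2.15 for Ccl8. Ccl11 had at most 0.255 CPM in any library and was not tested.

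The receptor Ccr1 was higher (log2FC 2.81, adjusted p = 2.93e-07), with 78.7 to 92.4 CPM in MRL/lpr and 11.7 to 13 CPM in MRL/mpj. Cxcr3, a receptor for Pf4, had a log2FC of 1.2 and did not pass (adjusted p = 0.197), and Ccr8 was not tested, with at most 0.276 CPM. Of the 10 chemokine genes tested, 6 were higher, 1 was lower and 3 did not pass.

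Among 22 genes for transcription factors, cytokine receptors and a growth factor that shape macrophage identity, 8 were higher in MRL/lpr and 14 did not pass. Of all tested genes, 11.1% were higher and 9.06% were lower. Those higher were led by Runx3 (log2FC 2.60), Il4ra (0.92) and Klf4 (0.87). In the main edgeR fit and with DESeq2, 0 of the 22 genes were lower at an adjusted p under 0.05. Limma on FPKM gave 2, edgeR scaled by library size only gave 3, and edgeR without MRL/lpr replicate 3 gave 2. By the main edgeR fit, 3 were lower at an unadjusted p under 0.05. Maf had 260 to 263 CPM in MRL/lpr and 286 to 297 CPM in MRL/mpj without overlap (log2FC -0.15, adjusted p = 0.089). Spi1 (0.17, adjusted p = 0.212) and Irf8 (0.35, adjusted p = 0.602) did not pass.

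Markers of the cells that surround border macrophages differed between the strains. Of all tested genes, 11.1% were higher in MRL/lpr and 9.06% were lower. These shares stand beside the counts of markers here and in the marker lists that follow. The summed CPM of 9 fibroblast markers was 46.6 to 62.9 in MRL/lpr and 167 to 176 in MRL/mpj, with 6 of the 9 lower, led by Igf2 (log2FC -2.28) and Col3a1 (-2.13). For 7 markers of pericytes and smooth muscle it was 388 to 481 and 907 to 943, with 5 lower, led by Acta2 (-1.90). For 9 markers of choroid plexus epithelium it was 364 to 377 and 1086 to 1172, with 8 lower, led by Prlr (-2.24). Summed CPM were thus 3.02-fold, 2.21-fold and 3.05-fold higher in MRL/mpj, beside 3.20-fold for Cbr2 and 1.31-fold for Mrc1. Their part in the Cbr2 and Mrc1 results was not tested. The 9 brain endothelial markers had 2180 to 2305 and 2080 to 2139 CPM, with 2 higher, 2 lower and 5 not passed.

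Lyve1 and Pf4 are shared with other cells. Of 6 lymphatic endothelial markers, summed at 68.7 to 72.7 CPM in MRL/lpr and 61.3 to 67.3 CPM in MRL/mpj, Ccl21a was at 0 in every library and the 4 tested did not pass. Of 10 platelet markers, summed at 24.9 to 33.5 and 17.5 to 23.4 CPM, Gp9 made up most and was higher (log2FC 0.75), while Ppbp, which lies 2.37 kb from Pf4 and is abundant in platelets, had at most 8 counts in any library. The part of either cell type in the Lyve1 and Pf4 values was not tested.

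Markers of other myeloid cells and lymphocytes moved too, beside 11.1% of all tested genes higher in MRL/lpr and 9.06% lower. Of 11 monocyte markers, 6 were higher, led by F10 (log2FC 3.36) and Ms4a4c (3.05), and 2 were lower, Chil3 (-1.59) and Ace (-0.85), while their summed CPM overlapped at 150 to 183 in MRL/lpr and 183 to 190 in MRL/mpj. Of 9 dendritic cell markers, summed at 52.1 to 58.9 and 42.7 to 43.8 CPM, Itgae (1.42) and Ccr7 (0.86) were higher and 7 did not pass. Of 9 neutrophil markers, summed at 722 to 843 and 573 to 638 CPM, 3 were higher. The 7 T cell markers summed to 15.2 to 22.8 CPM in MRL/lpr and 3.68 to 4.77 CPM in MRL/mpj, with 6 higher. The 7 B cell markers summed to 27.2 to 27.6 and 32.8 to 33.7 CPM. Of the 5 tested, Ebf1 was lower and 4 did not pass. The sum and the single markers differed in direction. The median log2FC of the 5 was 1.57, and 3 of them were higher in MRL/lpr without overlap (19.6% of all tested genes).

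Of 14 microglial markers, 5 were lower (9.06% of all tested genes), 1 was higher (11.1%) and 8 did not pass. Their summed CPM was 18950 to 21390 in MRL/lpr and 24360 to 24610 in MRL/mpj. The highest MRL/lpr sum, in replicate 2, was raised by a single marker far higher there than in the other MRL/lpr libraries. Another marker was far lower in MRL/mpj replicate 1 than in the other MRL/mpj libraries. All 13 genes of a response to tissue dissociation were higher in MRL/lpr, where 11.1% of all tested genes were. Their summed CPM was 45750 to 51940 in MRL/lpr against 26440 to 28030 in MRL/mpj. The part of these cell types and of this response in the Ccl8, Cd163 and MHC class II values was not tested.

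**Figure D5:**
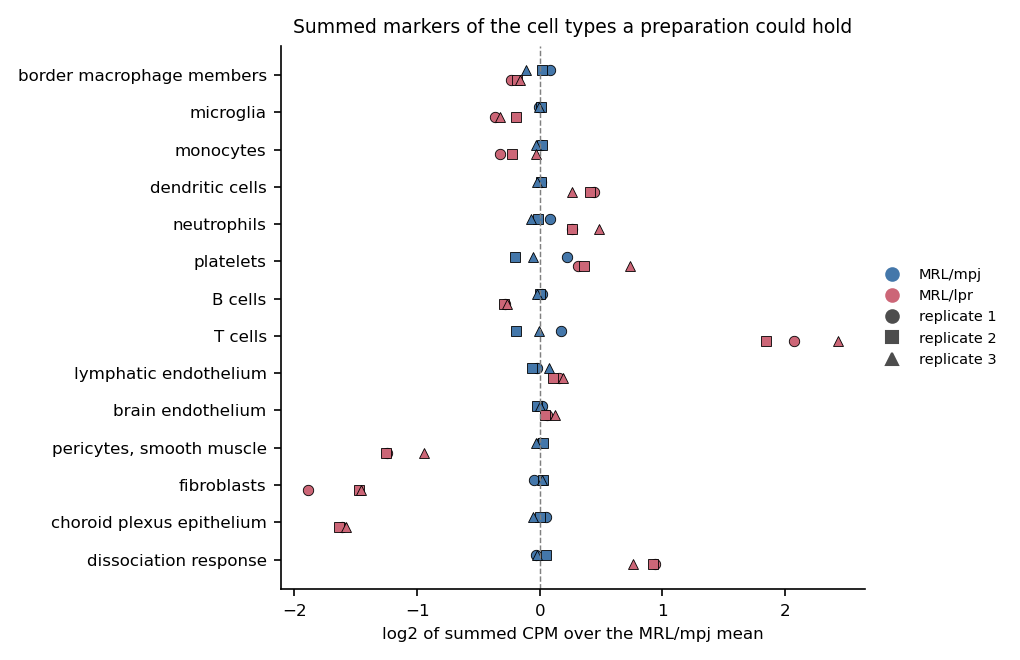
Summed CPM of the 9 border macrophage genes and of the marker lists of other cell types, as the log2 of each library's sum over the MRL/mpj mean, with points for single libraries. The fibroblast, pericyte and smooth muscle, and choroid plexus lists lie far to the left in MRL/lpr, the T cell and dissociation lists to the right, and the 9 border macrophage genes just left of 0 with a ratio of means of 0.876.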

How the data were processed

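RNA-seq libraries of cells selected for CD11b from mouse brain were used, 3 of MRL/lpr and 3 of MRL/mpj. The authors deposited raw read counts for each gene, as whole numbers that were not normalized. The deposited FPKM values are fragments divided by gene length and library depth. The labels name cutadapt 1.9.3, HISAT2 2.0.4, Cuffdiff 2.2.1, Cufflinks and the build GRCm38 in the submitters' processing notes. The counting tool, the annotation and the strand setting are not given in the sources used here. The methods describe purification of mRNA, the labels removal of ribosomal RNA.

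Symbols and positions came from GENCODE M21 (GRCm38), which matched 55141 of 55401 identifiers. Genes were filtered with filterByExpr (minimum count 10, minimum total 15), scaled with TMM and tested with edgeR 4.0.16 (R 4.3.3) by the quasi-likelihood test with robust dispersions and Benjamini-Hochberg adjustment over 19554 genes. A gene passed at an adjusted p under 0.05, and counts with |log2FC| of at least 1 are given beside. The intervals are 95% intervals of the fit, and CPM values are TMM-scaled. The smallest p an exact permutation test of 3 against 3 libraries can give is 0.1, so none was used for single genes. The fit was checked on simulated counts in which 200 genes were changed.

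Alternatives were DESeq2 1.42.0, its size factors in edgeR, scaling by library size only, no count filter, dispersions that are not robust, a replicate block, counts divided by 4, limma 3.58.1 on log2(FPKM + 0.1), and each library left out in turn. The members and lists were chosen with earlier results of these data known. Named genes are the 9 members, a list of direct partners, up to 5 genes per direction and list with the largest |log2FC| among those that passed, and the nearest profiles (log2 of CPM + 0.1). A few genes that this rule covers are not reported here. Promoter windows came from RefSeq (GRCm38.p6). Same-numbered libraries had deviations correlated at -0.0546, -0.0535 and -0.0644, so the numbers were not taken as pairs. Replicates of a strain differed by more than sampling noise, and MRL/lpr replicate 3 stood farthest apart. The median chi-square over that of sampling was 26.4 for MRL/lpr replicate 3 against each of replicates 1 and 2. For the other pairs within a strain it ran from 9.28 to 12.1.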

Additional observations from a re-analysis of the deposited data

How the results depend on the processing

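No log2 fold change of the 9 genes changed sign in any of the 14 alternative fits. Members higher numbered 1, but 2 with DESeq2 and with counts divided by 4, and 1 to 2 when a library was left out (2 without MRL/lpr replicate 3), the gene gained being Cd163. Members lower numbered 2, but 1 with the replicate block, 1 at |log2FC| of at least 1 and 1 in each leave-one-out fit, the gene lost in the block and leave-one-out fits being Mrc1 (adjusted p = 0.0535 with the block).

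With |log2FC| of at least 1, 5 other border macrophage genes were higher and 1 lower, 0 genes of the MHC class II high subset were lower, 9 partner genes were higher and 3 lower, and 1 regulator was higher. The replicate block, which is not a pairing given by the labels, left 2 other border macrophage genes lower, 0 of the MHC class II high subset (Axl lost) and 3 partner genes. Without a library, 3 to 5 other border macrophage genes, 0 to 1 of the MHC class II high subset, 3 to 7 partner genes (3 without MRL/mpj replicate 3) and 0 to 2 regulators (2 without MRL/lpr replicate 3) were lower. Scaling by library size only moved the median log2 fold change of all tested genes from -0.0093 to -0.13, and limma on FPKM to -0.12. These settings left 11 and 10 partner genes lower and 3 and 2 regulators lower, and with limma 4 regulators were higher. The causes were not tested.

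Depth limits the scarce genes most. Ccl8 in MRL/mpj, Folr2, Lyve1 and Pf4 rest on low counts. With counts divided by 4, the log2 fold change of Ccl8 was 3.33 (adjusted p = 0.000836) and that of Lyve1 was -0.92 (adjusted p = 0.127).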
